A study of Mus musculus with 8 samples.

Results

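The 10 genes described here encode the 5 NF-κB subunits (*Nfkb1*, *Nfkb2*, *Rela*, *Relb* and *Rel*) and 5 feedback and target genes of the pathway (*Nfkbia*, *Nfkbiz*, *Tnfaip3*, *Tnf* and *Birc3*). They were chosen by gene name from the 54532 genes of the count table, and all 10 were among the 16971 genes whose counts averaged 10 or more per library. The RNAseq counts come from 8 libraries of mG+ (membrane GFP) cells, sorted by FACS from females at 8 months of age. EC-*Tert*-KO mice were Tie2e-cre; TERTfl/fl; mTmG, and WT littermates were Tie2e-cre; TERT+/+; mTmG, so that both genotypes carried the Cre transgene and the reporter that turns from membrane Tomato to membrane GFP after Cre activity. There was 1 library per genotype in each of 4 pairs: subcutaneous adipose tissue (SAT) after high fat diet (HFD), and SAT, visceral adipose tissue (VAT) and gastrocnemius muscle on regular chow. Cre was driven by the endothelial Tie2e promoter, so *Tert*, which encodes the catalytic subunit of telomerase, is deleted in cells in which that promoter was active and in their progeny. Whether a library held cells of 1 mouse or of several is not stated in the sources used here. P-values therefore measure only the spread between these libraries. With 1 library per genotype in each pair, that spread is the variation of the KO over WT difference between pairs, also in the tissue and diet contrasts.

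NF-κB is a family of dimeric transcription factors. In the canonical route, signals from TNF, IL-1 or Toll-like receptors lead to phosphorylation and loss of IκBα, which otherwise holds dimers of RelA, c-Rel and p50 in the cytoplasm. In the non-canonical route, receptors such as LTβR and CD40 lead to processing of p100 to p52, which pairs with RelB. Many targets of the factor are its own brakes, among them IκBα and A20, so their transcripts are often read as a record of recent NF-κB activity, and in endothelium the pathway is known for the induction of adhesion molecules and chemokines. Transcript levels do not measure nuclear NF-κB.

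Library totals were 6214269 to 18855772 counts. *Tert* went from 114 counts in the WT library to 0 in KO (HFD SAT), from 70 to 11 (chow SAT) and from 24 to 7 (muscle). In VAT the library labelled WT had 3 *Tert* counts and the library labelled KO had 9, so *Tert* does not show the genotype of that pair. The WT SAT chow library stood apart: *Malat1*, a nuclear long non-coding RNA, was at 292 CPM (counts per 1000000 scaled counts) in it and at 2149 to 5836 CPM in the other 7 libraries, a log2 ratio of KO to WT of 4.32 in its pair against −0.47 to 0.25 in the others. In that pair the median log2 ratio of genes also moved with gene length, from −0.54 in the shortest to 0.64 in the longest of 5 bins of genes. All 12 endothelial markers were detected in every library, with a summed level of 350 to 2590 CPM, and no marker sum over leukocyte lists was at 0: macrophage markers summed to 187 to 8129 CPM, T cell markers to 261 to 3294 CPM, B cell markers to 176 to 2453 CPM and neutrophil markers to 49.1 to 17060 CPM. These sums moved with tissue and, in part, with genotype, and their part in the results on the NF-κB genes was not tested. In bulk libraries, fewer cells of a type and less RNA per cell cannot be told apart.

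Promoter windows are shown first because 4 of the 7 members with a RefSeq entry carried the NF-κB consensus shortly before a RefSeq start. They were the subunit genes *Rel* and *Nfkb2* and the feedback genes *Tnfaip3* and *Nfkbia*. The windows are the 250 bases before the RefSeq start (GRCm38.p6), 5′ to 3′ on the strand of the gene, with matches to the 10-base NF-κB consensus on either strand in capitals; matches that overlap form 1 run of capitals. The *Rel* window lies at chr11:23770970-23771219, minus strand, the *Tnfaip3* window at chr10:19015411-19015660, minus strand, the *Nfkbia* window at chr12:55492648-55492897, minus strand and the first *Nfkb2* window at chr19:46304487-46304736, plus strand. The *Tnf* window, at chr17:35202008-35202257, minus strand, is given beside them as a member without a match in this window.
Rel: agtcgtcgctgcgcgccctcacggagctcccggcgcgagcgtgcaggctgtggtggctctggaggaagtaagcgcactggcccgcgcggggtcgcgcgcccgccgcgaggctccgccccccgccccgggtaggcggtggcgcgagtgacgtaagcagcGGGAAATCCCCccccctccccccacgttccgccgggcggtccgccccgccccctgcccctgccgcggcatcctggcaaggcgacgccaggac
Tnfaip3: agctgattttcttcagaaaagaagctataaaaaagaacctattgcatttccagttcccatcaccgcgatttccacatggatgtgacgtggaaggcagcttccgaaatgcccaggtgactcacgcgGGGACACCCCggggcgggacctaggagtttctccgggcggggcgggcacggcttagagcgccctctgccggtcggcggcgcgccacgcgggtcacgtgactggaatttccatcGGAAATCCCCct
Nfkbia: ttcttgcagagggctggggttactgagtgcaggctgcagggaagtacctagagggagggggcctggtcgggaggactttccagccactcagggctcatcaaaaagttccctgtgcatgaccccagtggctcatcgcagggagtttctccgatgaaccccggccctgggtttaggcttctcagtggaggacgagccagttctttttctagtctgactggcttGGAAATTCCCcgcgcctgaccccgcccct
Nfkb2: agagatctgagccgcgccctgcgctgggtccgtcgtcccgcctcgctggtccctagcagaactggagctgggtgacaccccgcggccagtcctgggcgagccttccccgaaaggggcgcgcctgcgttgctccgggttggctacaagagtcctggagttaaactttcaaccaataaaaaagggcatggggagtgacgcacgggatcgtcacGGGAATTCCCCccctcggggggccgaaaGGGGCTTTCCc
Tnf: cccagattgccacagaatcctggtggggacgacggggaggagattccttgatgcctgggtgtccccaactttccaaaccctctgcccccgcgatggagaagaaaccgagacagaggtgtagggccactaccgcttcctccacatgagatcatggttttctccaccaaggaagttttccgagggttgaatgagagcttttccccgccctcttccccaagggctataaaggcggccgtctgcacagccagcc
Counted back from the start, the overlapping matches of *Rel* lay at −92 to −83 and −91 to −82. In *Tnfaip3* matches lay at −125 to −116 and −12 to −3, in *Nfkbia* at −29 to −20, and in *Nfkb2* at −39 to −30, −38 to −29 and −11 to −2. The *Tnfaip3* matches lie within the gene as counted (positions 19000910 to 19015657), which begins before this RefSeq start. A further *Tnfaip3* window, at chr10:19011964-19012213, held no match. The windows of *Rela*, *Birc3* and *Tnf* held no match, and *Nfkb1*, *Relb* and *Nfkbiz* had no entry. Among all 27025 genes with a window, 8.23% held the consensus in at least 1 window. A match describes the letters of the window, not binding, and no match says only that these letters are absent from it.

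Levels between genes are compared per length, as CPM divided by the gene length in kilobases. *Nfkbia* (ENSMUSG00000021025, chromosome 12, positions 55489410 to 55492647), which encodes IκBα, had the highest level of the 10 genes in all 8 libraries, with a median of 299.9 CPM per kb (215.6 to 635.3). *Tnfaip3* (ENSMUSG00000019850, chromosome 10, positions 19000910 to 19015657), which encodes the deubiquitinase A20, followed at a median of 137 CPM per kb. Next came *Rel* at 89.8, *Nfkbiz* at 76.6, *Nfkb2* at 66.3 and *Rela* at 59.8 CPM per kb. *Birc3*, which encodes the ubiquitin ligase cIAP2, was at 39.4, *Tnf* at 37.9, *Nfkb1* at 34.2 and *Relb* at 21.8 CPM per kb. The ranges of neighbours in this order overlapped over the 8 libraries, and while *Nfkbia* ranked 1 in each, *Rel* held ranks from 3 to 10.

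*Rel* (ENSMUSG00000020275, chromosome 11, positions 23736847 to 23770970) encodes c-Rel, the subunit best known from lymphocytes. Its level was 933 and 754 CPM in VAT (WT, then KO), 733 and 441 CPM in muscle, 73.6 and 1030 CPM in chow SAT and 449.6 and 608 CPM in HFD SAT. Thus 1 library, WT SAT chow, was far below the other 7. *Rela* (ENSMUSG00000024927, chromosome 19, positions 5637483 to 5648130) encodes p65, the main transactivating subunit of canonical dimers. Its level was 226 and 215 CPM in VAT (WT, then KO), 133 and 92.2 CPM in muscle, 213 and 136 CPM in chow SAT and 175 and 149.8 CPM in HFD SAT. *Rela* was lower in the KO library in each pair, in VAT with a counting interval that included 0. *Relb* (ENSMUSG00000002983, chromosome 7, positions 19606217 to 19629438), the partner of p52, had the lowest median level per length of the subunits and was at 92.2 and 114 CPM in VAT, 73 and 51.4 CPM in muscle, 107 and 94.8 CPM in chow SAT and 62.5 and 77.3 CPM in HFD SAT.

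*Nfkb1* (ENSMUSG00000028163, chromosome 3, positions 135584655 to 135691547) encodes p105, the precursor of p50. It was at 643 and 639.7 CPM in VAT (WT, then KO), 422 and 285 CPM in muscle, 336 and 461 CPM in chow SAT and 403 and 343 CPM in HFD SAT. The VAT pair was the highest and its libraries nearly equal. A short transcript model, *Gm43430*, lies within it on the same strand and took 2426 counts over the 8 libraries, against 45525 for *Nfkb1*. *Nfkb2* (ENSMUSG00000025225, chromosome 19, positions 46304737 to 46312090) encodes p100, the precursor of p52, and was at 295 and 271 CPM in VAT, 186 and 108 CPM in muscle, 229 and 228 CPM in chow SAT and 208 and 144 CPM in HFD SAT. Its muscle KO library was the lowest of the 8.

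Of the summed level of the 5 subunit genes (CPM per kb), *Rel* made up 4.62% in the WT SAT chow library and 25.4% to 43.1% in the other 7. In that library *Rela* took 36.8% and *Nfkb2* 32.7%, against 15.6% to 27.1% and 19.1% to 26.7% elsewhere. The share of *Nfkb1* was the steadiest, at 12% to 15.4%. The ratio of *Rel* to *Rela* per length was 0.126 in WT SAT chow and 2.77 in KO SAT chow, and between 0.935 and 2.01 in the other 6 libraries. The shift lay mostly on the side of the WT library.

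**Figure D1:**
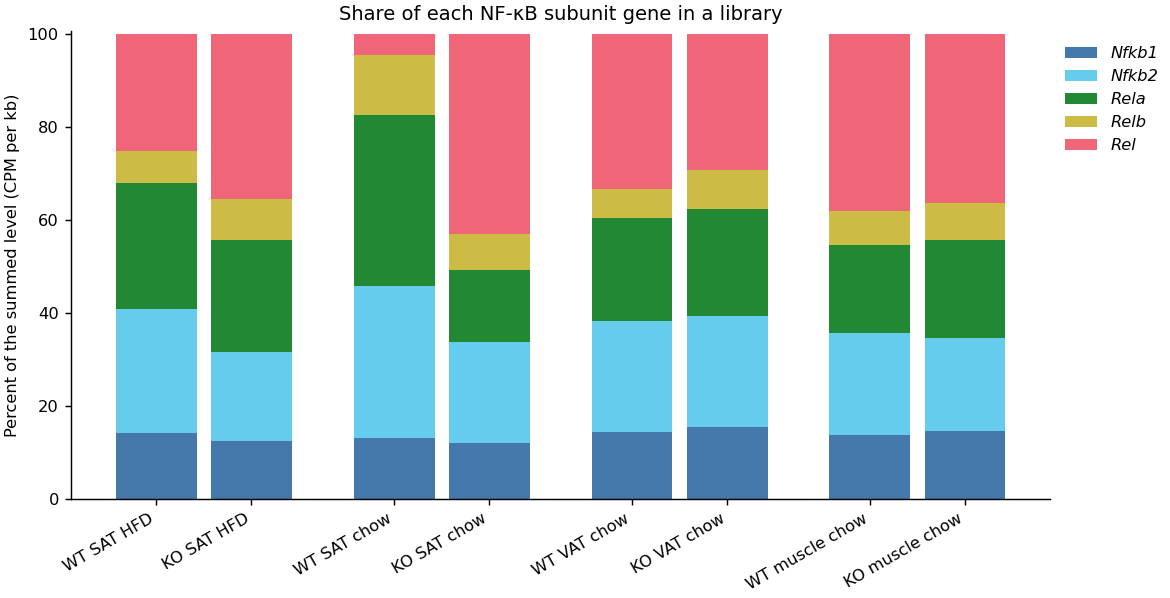
Stacked bars give, for each of the 8 libraries, the percent of the summed level (CPM per kb) of the 5 NF-κB subunit genes that each gene took. The *Rel* segment is 4.62% in WT SAT chow and at least 25.4% in every other library.

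*Tnfaip3* was at 1574 and 1860 CPM in VAT (WT, then KO), 734 and 495 CPM in muscle, 224 and 1786 CPM in chow SAT and 836 and 1148 CPM in HFD SAT. *Nfkbiz* (ENSMUSG00000035356, chromosome 16, positions 55811375 to 55838899) encodes IκBζ, a nuclear IκB protein that helps induce secondary response genes, and was at 1052 and 984 CPM in VAT, 470.2 and 369 CPM in muscle, 111 and 400.2 CPM in chow SAT and 290.4 and 304 CPM in HFD SAT. *Nfkbia* was at 879.6 and 1023 CPM in VAT, 487 and 397 CPM in muscle, 347 and 504 CPM in chow SAT and 479 and 419 CPM in HFD SAT. For these genes, as for *Rel*, WT SAT chow was the lowest of the 8 libraries.

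*Birc3* (ENSMUSG00000032000, chromosome 9, positions 7848699 to 7873186) was at 417 and 455 CPM in VAT (WT, then KO), 199 and 134 CPM in muscle, 149 and 317 CPM in chow SAT and 177 and 196 CPM in HFD SAT. *Tnf* (ENSMUSG00000024401, chromosome 17, positions 35199381 to 35202007), the cytokine that both activates the pathway and is a target of it, was at 184 and 190.3 CPM in VAT, 69 and 50.8 CPM in muscle, 90.02 and 50.4 CPM in chow SAT and 55.4 and 51.2 CPM in HFD SAT. In *Tnf*, unlike in the other feedback genes, WT SAT chow was above its KO partner, and both VAT libraries were at least 184 CPM while the other 6 did not exceed 90.02 CPM.

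**Figure D2:**
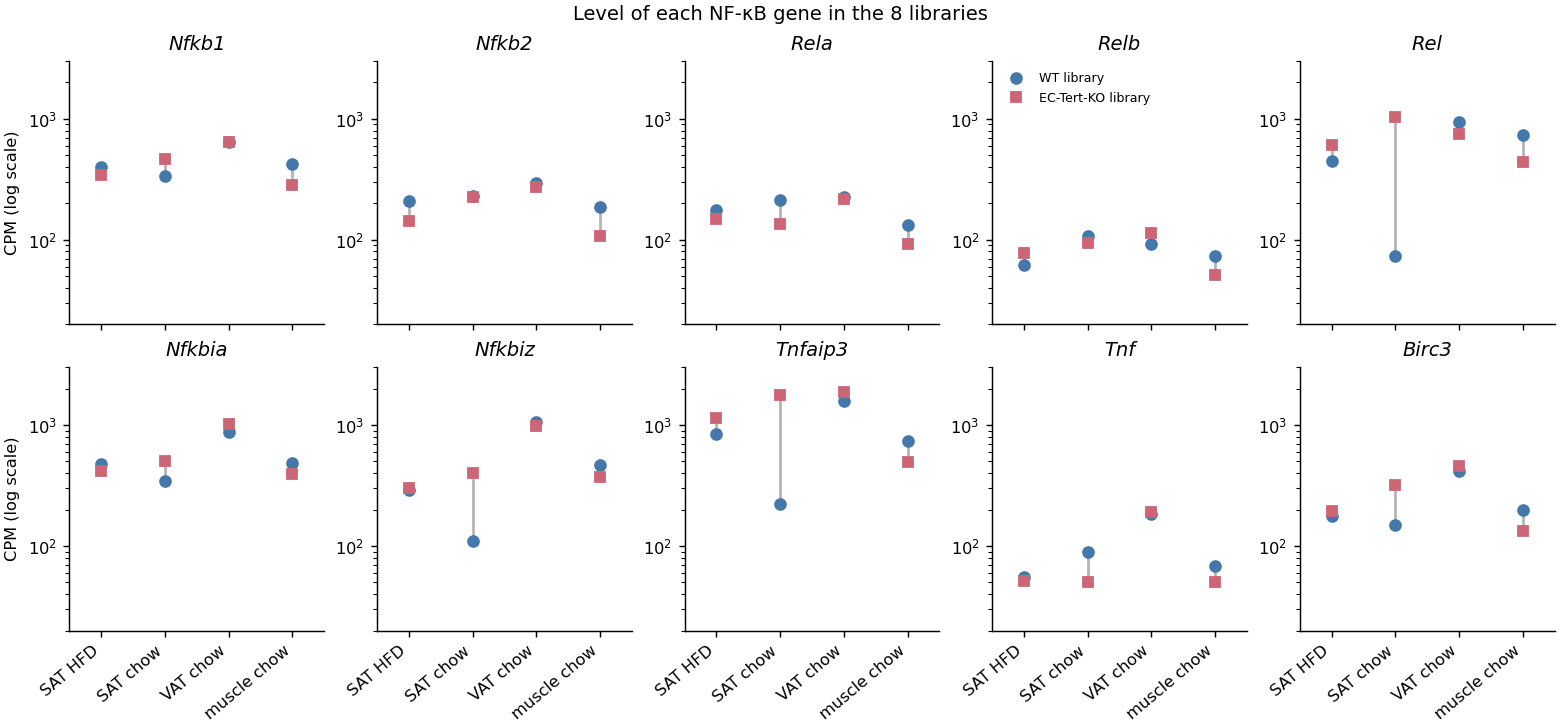
Each panel plots the level of 1 gene in CPM on a log axis for the WT (circle) and EC-*Tert*-KO (square) library of each tissue and diet, with a line joining the pair. *Rel* in SAT on chow runs from 73.6 CPM in WT to 1030 CPM in KO, and the VAT pair is the highest for *Tnf*, at 184 and 190.3 CPM.

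KO was compared with WT within each pair to ask how the loss of endothelial *Tert* goes with NF-κB transcripts in each tissue and diet. In SAT on chow, *Rel*, *Tnfaip3*, *Nfkbiz* and *Birc3* were more than 2-fold higher in the KO library. *Rel* went from 1217 to 17087 counts, 14-fold higher (log2 ratio 3.81, 95% counting interval 3.72 to 3.89). *Tnfaip3* went from 3710 to 29633 counts, 7.96-fold (2.99, 2.94 to 3.04), *Nfkbiz* from 1836 to 6641 counts, 3.6-fold (1.85, 1.78 to 1.93), and *Birc3* from 2465 to 5265 counts, 2.13-fold (1.09, 1.02 to 1.16). The 4 members stand beside a background of 19.0% of 16908 genes whose interval lay wholly beyond 2-fold higher in that pair. No member was beyond 2-fold lower, against 11.7% of genes. *Nfkbia* had a log2 ratio of 0.54 and *Nfkb1* of 0.46, *Nfkb2* was near equal at −0.01, and *Relb* (−0.17, but 0.06 when scaled by library totals), *Rela* (−0.65) and *Tnf* (−0.83) were lower in KO. In all, 6 members had an interval above 0 and 3 below it, against 40.9% and 40.3% of genes, and the median over the 10 members was 0.5, against −0.004 for all genes tested. With 1 library per genotype there is no replicate check and no test within a pair, and intervals cover counting error only.

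The same pair held the WT library that stood apart. Genes of the length of *Rel* had a median log2 ratio of 0.31 there, and those of the length of *Tnfaip3* had 0.34. With this median taken off, the ratio was 3.49 for *Rel*, 2.65 for *Tnfaip3*, 2.06 for *Nfkbiz*, 1.3 for *Birc3* and 1.1 for *Nfkbia*, and that of *Nfkb1* changed sign, to −0.39. Stromal marker genes summed to 759 CPM in the WT and 3296 CPM in the KO library, mural markers to 50.2 and 181 (with *Cspg4* at 0 in WT), T cell markers to 3294 and 1704, macrophage markers to 831 and 409 and neutrophil markers to 209 and 63.2. All 8 stromal, macrophage, neutrophil and T cell markers were detected in both libraries. The part of cell makeup, and of whatever sets *Malat1* and long genes apart in the WT library, in the difference of the NF-κB genes was not tested.

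**Figure D3:**
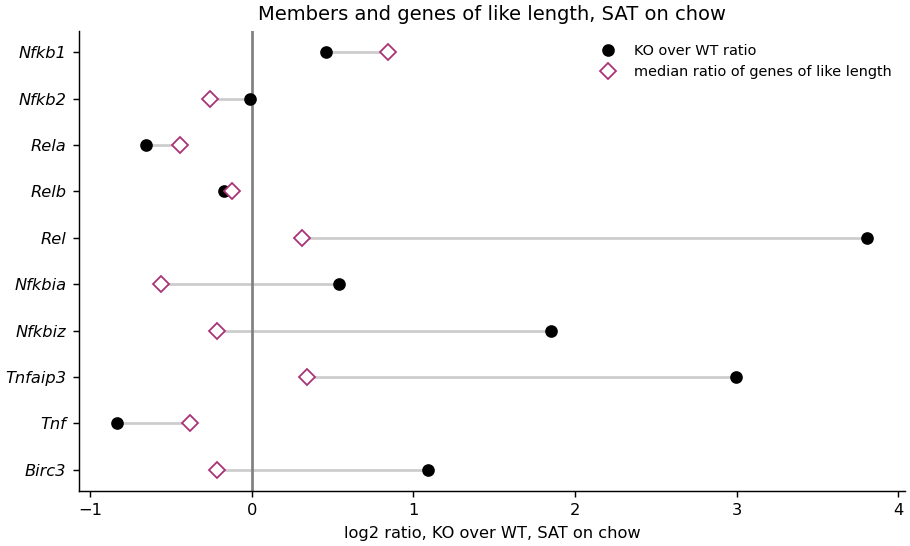
For SAT on chow, filled points give the log2 ratio of KO to WT of each member and open diamonds the median log2 ratio of genes of like length. *Rel* (3.81) and *Tnfaip3* (2.99) lie far to the right of the medians of 0.31 and 0.34, while *Nfkb1* (0.46) lies to the left of its median of 0.84.

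In muscle all 10 members were lower in the KO library, each with a counting interval below 0. The log2 ratios were −0.79 for *Nfkb2*, −0.73 for *Rel*, −0.57 for *Tnfaip3* and *Nfkb1*, −0.56 for *Birc3*, −0.53 for *Rela*, −0.51 for *Relb*, −0.44 for *Tnf*, −0.35 for *Nfkbiz* and −0.29 for *Nfkbia*. Their median was −0.55, against −0.005 for all genes. In that pair 29.4% of 16967 genes had an interval below 0 and 26.7% had one above it. None of the members was beyond 2-fold, with 2.75% of genes beyond 2-fold higher and 2.05% lower. The members lay at percentiles 8.5 to 26.1 of the log2 ratios of all genes, and their direction was the same under each scaling tried, the prior count of 5 and the removal of the length trend. Macrophage markers summed to 688 CPM in WT and 316 in KO, T cell markers to 714 and 459, neutrophil markers to 13200 and 17060 and stromal markers to 687 and 1356, and the part of these cells in the result was not tested.

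In SAT on HFD the members were divided. *Tnfaip3* (log2 ratio 0.46, interval 0.41 to 0.5), *Rel* (0.44), *Relb* (0.31) and *Birc3* (0.15) were higher in the KO library, and *Nfkb2* (−0.53), *Nfkb1* (−0.23), *Rela* (−0.22) and *Nfkbia* (−0.19) were lower. The intervals of *Tnf* and *Nfkbiz* included 0. Of 15839 genes, 38.3% had an interval above 0 and 34.3% below it. None of the members was beyond 2-fold, against 12.7% of genes higher and 11.1% lower. With the length trend removed *Birc3* was at −0.02. Macrophage markers summed to 306 CPM in WT and 187 CPM in KO, and stromal markers to 2143 and 2182 CPM.

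In VAT the library labelled KO had *Relb* (0.3), *Tnfaip3* (0.24), *Nfkbia* (0.22) and *Birc3* (0.12) higher and *Rel* (−0.31), *Nfkb2* (−0.12) and *Nfkbiz* (−0.1) lower, and the intervals of the other 3 members included 0. Of 16439 genes, 26.6% had an interval above 0 and 24.7% below it, with 2.40% beyond 2-fold higher and 2.09% lower and no member among them. Stromal markers summed to 1039 CPM in the library labelled WT and 2255 CPM in that labelled KO. Mural markers summed to 168 and 588 CPM, muscle fibre markers to 123 and 8.77 CPM and macrophage markers to 8129 and 8026 CPM. The part of these cells in the ratios of the members was not tested.

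**Figure D4:**
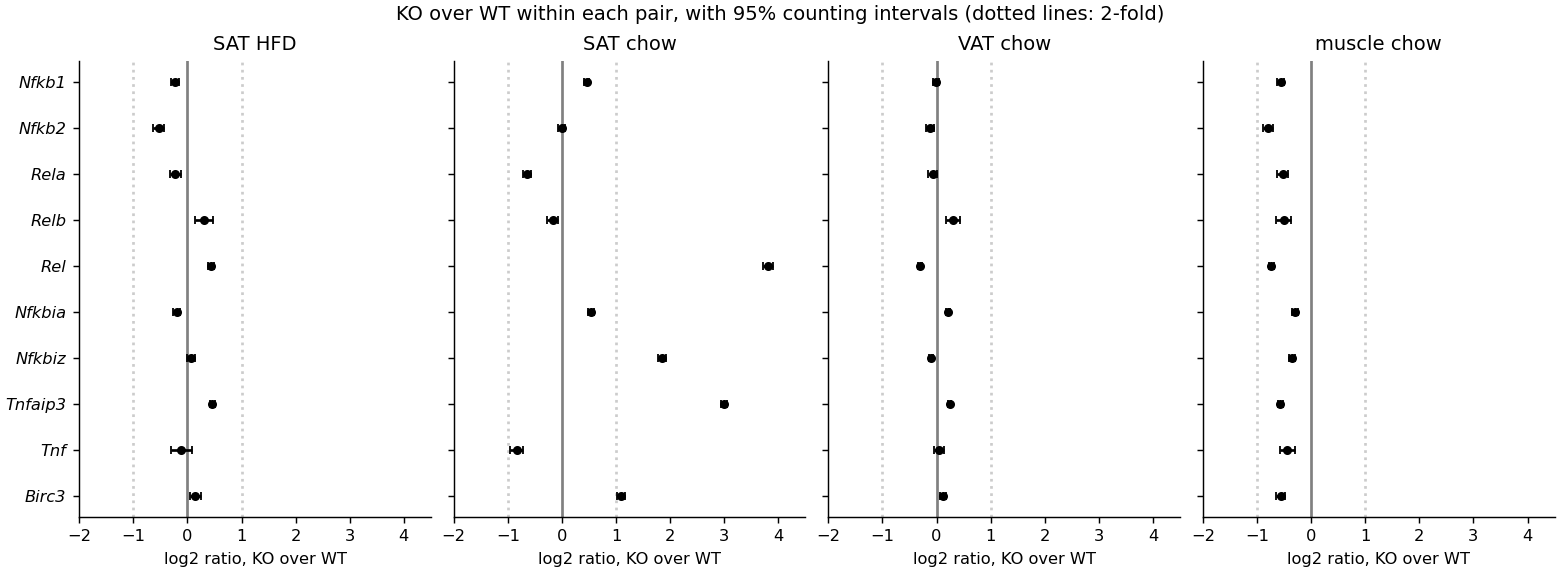
Points give the log2 ratio of KO to WT for each member in each pair, with 95% counting intervals as bars and dotted lines at 2-fold. In SAT on chow 4 members lie past the dotted line on the right, and in muscle all 10 lie left of 0 and short of the dotted line.

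Across the 4 pairs, the comparison asked for a KO effect that the tissues and diets share. The quasi-likelihood test of edgeR, adjusted over 16971 genes by Benjamini-Hochberg, called 0 of the 10 members (adjusted p under 0.05), and 0 were under 0.05 before adjustment. DESeq2's Wald test also called 0 members. The background was 0.00589% of genes called, with 279 genes at an unadjusted p-value under 0.05. The log2 fold change was 0.7 for *Tnfaip3* (SE 0.561, adjusted p = 1), 0.61 for *Rel* (SE 0.721), 0.34 for *Nfkbiz* (SE 0.39), 0.2 for *Birc3* (SE 0.296) and 0.07 for *Nfkbia* (SE 0.254). *Rela* was at −0.37 (SE 0.21), *Nfkb2* at −0.36 (SE 0.228), *Tnf* at −0.34 (SE 0.224), *Nfkb1* at −0.09 (SE 0.255) and *Relb* at −0.02 (SE 0.226). Without the SAT chow pair, *Rel* was at −0.2, *Nfkbiz* at −0.12, *Birc3* at −0.09, *Nfkbia* at −0.08, *Relb* at 0.04 and *Tnfaip3* at 0.05, all with an adjusted p of 0.998 by edgeR. The positive values of the first 4 of these genes thus rest on that pair. Without the VAT pair, whose *Tert* counts do not show the genotype, *Rel* was at 1.04, *Tnfaip3* at 0.91 and *Rela* at −0.45, and 0 members were called.

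Tissue was compared on chow, with the WT and the KO library of a tissue as its 2 samples and genotype as a term. VAT stood highest: 10 of 10 members had a higher level in VAT than in SAT (*Relb* was lower, at −0.02, with upper quartile scaling), with log2 fold changes of 0.03 to 2.1 and a median of 0.93, against −0.08 for all genes. 1 of the 10, *Tnf*, rose past the threshold, by 2.76-fold (log2 1.46, SE 0.322, adjusted p = 0.0431 by edgeR), beside a background of 5.05% of genes called. The value was largest for *Nfkbiz*, at 4.28-fold (2.1, SE 0.562, adjusted p = 0.0795), followed by *Nfkbia* at 2.24-fold (1.16, adjusted p = 0.12), *Tnfaip3* at 1.04 (SE 0.769, adjusted p = 0.506), *Birc3* at 0.93 (adjusted p = 0.258) and *Rel* at 0.93 (SE 0.986, adjusted p = 0.656). *Nfkb1* was at 0.68, *Rela* at 0.38, *Nfkb2* at 0.3 and *Relb* at 0.03. By edgeR, 3 members and 20.3% of all genes were at an unadjusted p-value under 0.05. Over the 4 chow libraries of these tissues, VAT and SAT did not overlap for *Tnf*, *Nfkbiz*, *Nfkbia*, *Birc3*, *Nfkb1*, *Nfkb2* and *Rela*, 7 of 10 members, beside 27.8% of all genes with both VAT libraries above both SAT libraries. The gap of *Rela* was narrow, 7.75 against 7.73 in log2 CPM, and closed with upper quartile scaling, which left 6 members. KO SAT chow lay above both VAT libraries for *Rel* and above the WT VAT library for *Tnfaip3*.

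Libraries were left out in turn. Without WT SAT chow, *Rel* was at −0.34, *Nfkbiz* at 1.34 (adjusted p = 0.0412) and *Tnf* at 1.87 (adjusted p = 0.0171), and 2 members were called, with 4.96% of all genes. Without KO SAT chow, only the WT library that stood apart was left for SAT on chow. *Rel* was then at 3.62, *Nfkbiz* at 3.26, *Tnf* at 1.15 and *Relb* at −0.07. Without the WT or the KO VAT library *Tnf* was at 1.72 (adjusted p = 0.18) or 1.27 (adjusted p = 0.272), and no member was called, while the share of all genes called fell to 0.611% or 0.551%. Macrophage markers, all 8 of them detected, summed to 8129 and 8026 CPM in VAT and to 831 and 409 CPM in SAT on chow. Endothelial markers also summed higher in VAT, to 2395 and 1822 CPM against 559 and 708 CPM in SAT on chow. T cell markers summed lower in VAT, to 261 and 342 CPM against 3294 and 1704 CPM. *Tnf* is expressed by macrophages, and the part of macrophages or of the other cells in the result was not tested.

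Muscle was lower than VAT in 10 of 10 members, with log2 fold changes of −1.67 to −0.48 and a median of −1.05, against 0.02 for all genes. *Tnf* fell past the threshold, 3.19-fold lower in muscle (log2 −1.67, SE 0.323, adjusted p = 0.0472 by edgeR), beside a background of 1.93% of genes called. *Tnfaip3* (−1.39), *Birc3* (−1.37), *Nfkbiz* (−1.26), *Nfkbia* (−1.1), *Rela* (−1), *Nfkb2* (−0.99), *Nfkb1* (−0.87), *Relb* (−0.73) and *Rel* (−0.48, but 0.36 without WT VAT and 0.2 without KO muscle) did not pass. At an unadjusted p-value under 0.05 were 7 members and 12.7% of all genes. Both comparisons of VAT share its libraries and are not independent of each other. Without any 1 of the 4 libraries *Tnf* was not called, at −1.92 (adjusted p = 0.196) and −1.4 (0.425) without WT or KO VAT and −1.74 (0.305) and −1.62 (0.502) without WT or KO muscle, and 0.243% to 0.443% of all genes were called. Neutrophil markers summed to 489 and 373 CPM in VAT and to 13200 and 17060 CPM in muscle, and macrophage markers to 688 and 316 CPM in muscle; their part in the result was not tested.

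**Figure D5:**
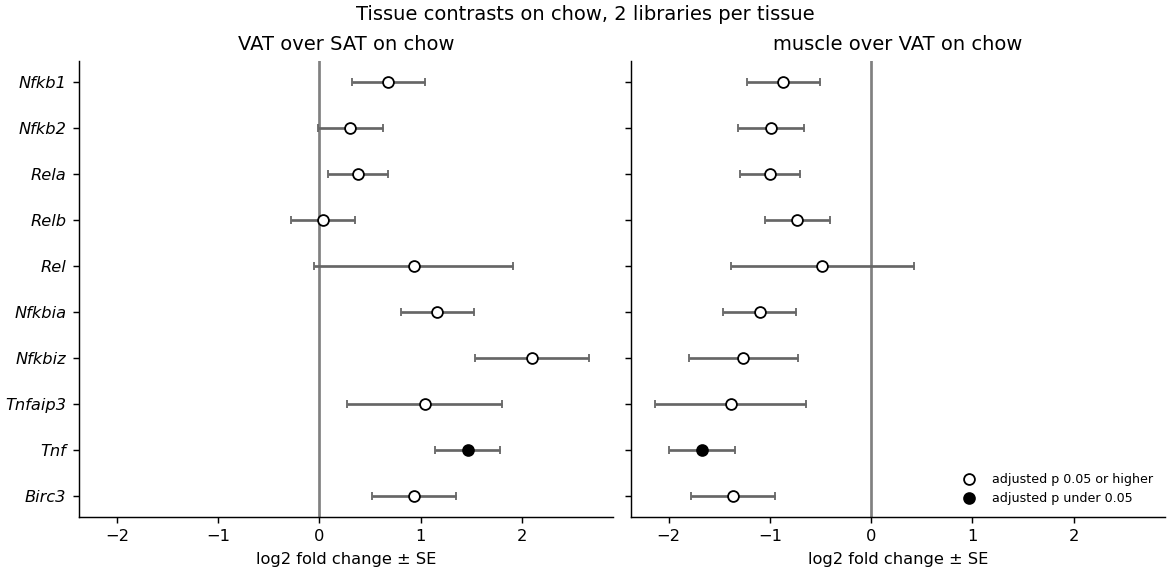
Points give the log2 fold change of each member between tissues on chow, with bars of 1 SE and filled points for an adjusted p under 0.05. All 10 points lie right of 0 for VAT over SAT (*Relb* at 0.03, and at −0.02 with upper quartile scaling) and left of 0 for muscle over VAT, and *Tnf* (1.46 and −1.67) is the only filled point in each panel.

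Muscle and SAT on chow did not differ past the threshold in any member, with log2 fold changes from −0.7 (*Relb*) to 0.83 (*Nfkbiz*), a lowest adjusted p of 0.467 by edgeR and 0 members at an unadjusted p-value under 0.05; 1.26% of genes were called. Without KO SAT chow, which left only the WT library that stood apart for SAT on chow, *Nfkbiz* was at 1.98 and *Relb* at −0.79. Diet was compared in SAT. By edgeR 0 members were called between HFD and chow, with log2 fold changes from −0.53 (*Relb*) to 0.31 (*Nfkbiz*), a lowest adjusted p of 0.745 and 0 members at an unadjusted p-value under 0.05. The background was 0% of genes called by edgeR, with 1354 genes at an unadjusted p-value under 0.05 and 260 called by DESeq2's Wald test, which called 0 members. Without WT SAT chow *Nfkbiz* was at −0.42. Without KO SAT chow, against the WT library that stood apart alone, *Nfkbiz* was at 1.5.

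The rest of the pathway was described with 4 lists of 68 genes. Of 15 receptors and ligands, 5 rose and 2 fell in VAT relative to SAT on chow by edgeR with Benjamini-Hochberg adjustment, with a list median of 1.59 against −0.08 for all genes, 5.05% of which were called. *Tlr4*, the receptor for lipopolysaccharide, rose by 2.34 on the log2 scale (SE 0.385, adjusted p = 0.0167), *Tnfrsf1a*, the main TNF receptor, by 1.93 (adjusted p = 0.0216), *Il1b* by 2.68 (adjusted p = 0.0263), *Tnfrsf11a*, which encodes RANK, by 2.53 and *Ltbr* by 1.73. The genes that fell were *Tnfrsf13c*, which encodes the BAFF receptor of B cells (−3.79, adjusted p = 0.008), and *Ltb*, which encodes lymphotoxin β (−2.84, adjusted p = 0.0449). Of 19 tested other target genes, 5 rose and 0 fell, with a median of 1.73. They were the chemokine genes *Cxcl2* (5.21), *Ccl2* (4.09) and *Cxcl10* (1.87), the early response gene *Ier3* (2.21) and *Vcam1* (2.13), the adhesion molecule of activated endothelium. Of 10 other inhibitors and IκB genes 1 rose, *Tnip2* (1.52), and among the adaptor, kinase and ubiquitin ligase genes *Sharpin*, which encodes a subunit of the linear ubiquitin ligase, fell (−1.24). Between these libraries macrophage markers summed to 8129 and 8026 CPM in VAT against 831 and 409 CPM in SAT, and B cell markers to 178 and 176 against 2453 and 1738 CPM, and the part of these cells in the lists was not tested.

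In muscle relative to VAT, *Tnfrsf13c* rose (2.99, adjusted p = 0.0202 by edgeR) and *Cd40* fell (−1.67, adjusted p = 0.0484) among the receptors and ligands, and *Ccl2* (−5.37) and *Cxcl10* (−2.61) fell among the target genes. No gene of the other pathway lists was called in this comparison, in which 1.93% of all genes were called. None of the 4 lists held a called gene for KO across pairs, for muscle against SAT or for diet. The shares of all genes called there were 0.00589%, 1.26% and 0%, so few or no calls would fall in lists of this size.

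Within SAT on chow, 7 of 19 target genes were beyond 2-fold higher in the KO library and 1 lower, where 19.0% of all genes were higher and 11.7% lower. This is the pair whose WT library stood apart and whose stromal markers summed to 759 CPM in WT and 3296 CPM in KO, and the part of either was not tested. *Il6* went from 9 to 353 counts (36.6-fold, log2 interval 4.35 to 6.43), *Cxcl1* from 54 to 677 (12.4-fold) and *Sele*, which encodes E-selectin, from 32 to 259 (7.93-fold). Of the 10 inhibitors, 3 were higher and 0 lower, *Nfkbid* by 3.78-fold, *Zc3h12a*, which encodes the RNase Regnase-1, by 3.5-fold and *Nfkbie* by 2.83-fold. Of the 15 receptors and ligands, 3 were higher, among them *Il1a* (4.62-fold) and *Il1r1* (4.12-fold), and 2 lower, among them *Ltb* (4.09-fold lower). Of the 23 adaptors, *Malt1* (2.57-fold) and *Traf3* (2.29-fold) were higher and *Tradd* was 2.95-fold lower. The shares of the adaptors and of the receptors and ligands that were higher were near or below the 19.0% of all genes. List medians ran from −0.02 for the adaptors to 0.75 for the target genes, against −0.004 for all genes.

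In muscle *Il6* went the other way, from 327 to 91 counts (2.99-fold lower in KO). *Cxcl1* was 2.79-fold, *Il1a* 5.41-fold and *Bcl3*, an atypical IκB protein, 2.37-fold lower. Of the 4 lists 0 genes were beyond 2-fold higher, where 2.75% of all genes were higher and 2.05% lower. The median of the 19 target genes was −0.48, against −0.005 for all genes. In SAT on HFD 1 of 20 target genes was higher and 3 lower, where 12.7% of all genes were higher and 11.1% lower. The higher one was *Ccl20*, with 0 counts in WT and 47 in KO, at least 8.24-fold higher against a floor of 3 counts per library. Of the 3 lower, *Csf2* went from 22 to 0 counts, at least 13.9-fold lower, and *Ccl2* was 3.42-fold lower. In VAT 0 genes of the 4 lists were beyond 2-fold in either direction, against 2.40% of all genes higher and 2.09% lower.

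The genes most like *Nfkbia* over the 8 libraries, by Pearson's r of log2 CPM among 12368 genes averaging 50 or more counts, were *Irf1* (0.991), *Trerf1* (0.991), *Nlrp1b* (0.989), *Slc35f6* (0.989) and *Tubb6* (0.988). Among the members, *Nfkb1* (0.943, rank 94), *Birc3* (0.921, rank 170) and *Nfkbiz* (0.901, rank 257) followed it most closely. *Relb* (0.467, rank 3035) and *Rela* (0.531, rank 2552) did so least. These coefficients describe 8 libraries from 4 tissue and diet settings, and the VAT pair was the highest in all of *Nfkbia*, *Nfkb1*, *Birc3* and *Nfkbiz*.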

How the data were processed

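RNAseq counts per gene in 8 libraries were used as the authors deposited them: whole-number read counts per Ensembl gene, without normalization, with a gene length column. HISAT2 2.0.5 and GRCm38/mm10 are named in the submitters' processing notes, and the counting program and its use of strand are not given in the sources used here, so reads of overlapping genes may be shared. RNA isolation is by a column kit according to the labels and by Trizol according to the paper, and libraries were made with a SMARTER mRNA kit. Groups were taken from the labels, and the KO and WT library of a tissue and diet formed a pair. The labels hold no replicate numbers.

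Libraries were scaled by TMM on the 16971 genes averaging 10 or more counts (edgeR 4.0.16, R 4.3.3), and CPM are per 1000000 scaled counts. Within pairs, the log2 ratio used a prior count of 0.5 and an exact conditional binomial (Clopper-Pearson) 95% interval, and a member was counted beyond 2-fold where the whole interval was. Genes averaging 10 or more counts over a pair entered its background. Across libraries, the quasi-likelihood test with robust dispersions was fitted with tissue and diet plus genotype (3 residual degrees of freedom). Benjamini-Hochberg adjustment was over all genes tested, with a threshold of 0.05. The SE was derived from that test, as the absolute log2 fold change divided by the square root of its F statistic. Alternatives were DESeq2 1.42.0 size factors and Wald test, library totals, upper quartile scaling, other filters, a prior count of 5 and leaving out each library or pair. In another, the KO test had no term for tissue and diet, and the tissue and diet contrasts had none for genotype. Subtraction of the median ratio of the gene's length bin (100 bins) was chosen after seeing the data. Both procedures were tested on simulated data. The 10 members and all gene lists were chosen with earlier results of these data known. All members are named, with up to 3 genes per pathway list and pair (largest log2 ratio beyond 2-fold), the pathway genes called across libraries (except 1 result that is not reported here), and the 5 genes most like *Nfkbia*. Adipocyte markers summed to 0 to 9.63 CPM and muscle fibre markers to 7.76 to 123 CPM per library, both highest in WT VAT. Promoter sequences are from RefSeq (GRCm38.p6); 7 of the 10 members matched.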

Additional observations from a re-analysis of the deposited data

Results flagged for a closer look

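*Tnf* in the KO VAT library, at a log2 CPM of 7.57, lay far from the other 3 KO libraries, which were at 5.66 to 5.68, by Dixon's criterion for 4 samples. 30 groups of 4 libraries were checked and 1 was flagged, and chance flags about 1 in 20 groups. The 4 KO libraries come from different tissues and diets.

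The KO over WT log2 ratio had opposite signs in SAT on chow and in muscle, with both intervals beyond 0, for *Rel* (3.81 against −0.73), *Tnfaip3* (2.99 against −0.57), *Nfkbiz* (1.85 against −0.35) and *Birc3* (1.09 against −0.56). With 1 library per genotype in each pair, these differences were not tested. In each case the SAT chow ratio was taken against the WT library in which *Malat1* was at 292 CPM. That library was the lowest of the 8 for *Rel*, *Tnfaip3* and *Nfkbiz*. For *Birc3* it was at 149 CPM, above the KO muscle library at 134 CPM.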

How the results depend on the processing

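The count of members called differed from the edgeR fit in these settings. VAT over SAT called 2 members over all genes with at least 1 count (7.14% of all genes) and 3 by DESeq2's Wald test (13.6%), and muscle over VAT called 2 (3.94%) and 5 (7.39%). When each library was left out in turn, the count was 0 to 1 for HFD over chow, 0 to 7 for VAT over SAT, 0 to 2 for muscle over SAT and 0 to 0 for muscle over VAT. Leaving out each pair, KO over WT across pairs ran from −0.26 to 0.054 for *Nfkb1*, −0.13 to 0.13 for *Relb*, −0.196 to 1.16 for *Rel*, −0.083 to 0.17 for *Nfkbia*, −0.12 to 0.57 for *Nfkbiz* and −0.09 to 0.43 for *Birc3*. Leaving out each library, *Nfkbiz* ran from −0.42 to 1.5 for HFD over chow, *Relb* from −0.12 to 0.24 and *Rel* from −0.34 to 3.62 for VAT over SAT, and *Rel* from −1.69 to 0.36 for muscle over VAT. A lone library of a tissue was then assumed to vary like the others. Without KO SAT chow the lone library was WT SAT chow, which stood apart. KO over WT across pairs changed sign for *Nfkb1* with library totals (0.032). It changed sign for *Relb* with DESeq2 size factors (0.009), library totals (0.105), upper quartile scaling (0.015) and DESeq2's Wald test (0.009). With tissue and diet left out of the KO test *Relb* was also above 0, at 0.013. With upper quartile scaling *Relb* was at −0.024 for VAT over SAT. In SAT on chow *Relb* was at 0.062 with library totals, and with the length trend removed *Nfkb1* was at −0.39 and, in SAT on HFD, *Birc3* at −0.02. The cause of these changes of sign was not tested. Library totals in place of TMM shift all genes by 0.23 in SAT on chow and 0.17 in muscle within the pair and by 0.21 for HFD over chow, and DESeq2 size factors shift them by 0.11 in SAT on chow, 0.15 for HFD over chow and 0.13 for VAT over SAT. No member's call changed when tissue and diet were left out of the KO test, or genotype out of the tissue and diet contrasts.

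Over all genes, calls ranged over the alternatives from 0 to 41 for KO across pairs (1 in the edgeR fit), 0 to 308 for HFD over chow (0), 93 to 3449 for VAT over SAT (857), 37 to 1761 for muscle over SAT (213) and 41 to 1255 for muscle over VAT (328). The highest count of each came without KO SAT chow, by DESeq2's Wald test or over all genes with at least 1 count. Values of single members were counted for every member in KO across pairs, in muscle over VAT and within pairs. For VAT over SAT, *Nfkb1*, *Nfkb2*, *Rela* and *Tnfaip3* were left out of this count. For muscle over SAT and HFD over chow it held only *Relb* and *Nfkbiz*, so changes of other members there are not in it. Of the other values so counted, 415 were counted as unchanged. In the tests across libraries this means the same direction and side of the threshold, and 14 values came to pass it and 6 no longer passed it. Within pairs it means a value inside the counting interval of the main setting, and 72 values lay outside that interval. Within pairs a change of sign was counted only for members whose main interval excluded 0. The lowest count of a member in a library was 368, and with 1 library per genotype in a pair the spread within a pair is unknown.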
